A study of Homo sapiens with 2 samples.

Results

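The RAB genes encode the largest family of RAS-like small GTPases. The 50 members compared here were taken from 62 genes, of 27685 in both deposited files, whose current NCBI symbol by Entrez ID is RAB, a number and at most 1 further letter. A member was compared where its level reached 1 TPM (a relative level of transcripts, corrected for their length and the library's total) in either library, so measured values took part in the choice and all values below are a description. The cells were PLC/PRF/5, an established human hepatocellular carcinoma line that carries integrated hepatitis B virus DNA. One culture had 24 h in 6 µM JIB-04, a small molecule that inhibits Jumonji histone demethylases, and the other had 24 h in the solvent DMSO, which 1 label of that sample calls untreated. Each condition had 1 RNA library, so no difference has a replicate check, no test was made, and differences between conditions and between these cultures cannot be told apart.

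A RAB protein switches between a GTP-bound form, which recruits effectors such as motors, tethers and fusion factors to a membrane, and a GDP-bound form, which is extracted to the cytosol. Guanine nucleotide exchange factors (GEFs) load GTP, GTPase-activating proteins (GAPs) speed its hydrolysis, and geranylgeranyl groups on the C terminus hold the protein on the membrane. Each RAB marks certain compartments, and in hepatocytes the family routes receptors, bile canalicular transporters and secreted plasma proteins. These are roles of the proteins, while the values below are RNA levels.

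The libraries held an estimated 23721989 fragments with JIB-04 and 28187793 with DMSO, of which RAB genes had 0.359% with JIB-04 and 0.351% with DMSO. The line was checked against marker genes: 7 of 9 hepatocyte and hepatoma markers reached 1 TPM with JIB-04 and 8 of 9 with DMSO, with GPC3 under 1 TPM in both. They did not differ in 1 direction: ALB had 4.53 TPM with JIB-04 and 9.74 TPM with DMSO, and AFP had 151 TPM with JIB-04 and 131 TPM with DMSO. The summed level of all 9 was 4532 TPM with JIB-04 and 8230 TPM with DMSO, most of it from KRT8 and KRT18. Of 14 markers of leukocytes, endothelium and fibroblasts, 4 reached 1 TPM with JIB-04 and 5 with DMSO. Their sums were 58.1 TPM with JIB-04 and 85.8 TPM with DMSO. Most of this came from LYZ, with 41.9 TPM with JIB-04 and 57.3 TPM with DMSO. COL1A1 had 10.6 TPM with JIB-04 and 16.0 TPM with DMSO. CD14 and LUM also reached 1 TPM in both libraries, while PTPRC, CDH5 and KDR were at 0 in both. The part of these markers in the results was not tested.

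Together the 50 RAB genes had 3224 TPM with JIB-04 and 3099 TPM with DMSO. Ratios here are JIB-04 over DMSO, on a log2 scale after adding 1 to each TPM, and a gene is called higher or lower at 2-fold on that scale, which understates the difference of weakly expressed genes. On this scale 6 of 50 members (12%) were higher with JIB-04 and 3 (6%) were lower, beside 5.99% higher and 6.88% lower among all 14450 genes compared. The higher members were RAB20, RAB43, RAB38, RAB6B, RAB3A and RAB9A, and the lower ones were RAB26, RAB27A and RAB5C. RAB20 and RAB38 reached 1 TPM only with JIB-04, so they were compared only through the library where they were higher. The calls for RAB43, RAB5C and RAB27A were lost when the last exon of each gene was left out, as set out further on. The median log2 ratio was 0.06 for the RAB genes and −0.15 for all genes compared. Of the RAB genes, 27 (54%) lay above 0, beside 39.7% of all genes, and 23 (46%) lay below, beside 60.3%. Within 0.5 of 0 lay 34 of the 50 (68%), beside 59.0% of all genes. The median of all genes was itself below 0, so members are also given below on a scale that sets the median of well-expressed genes to 0 where that alters a call.

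**Figure D1:**
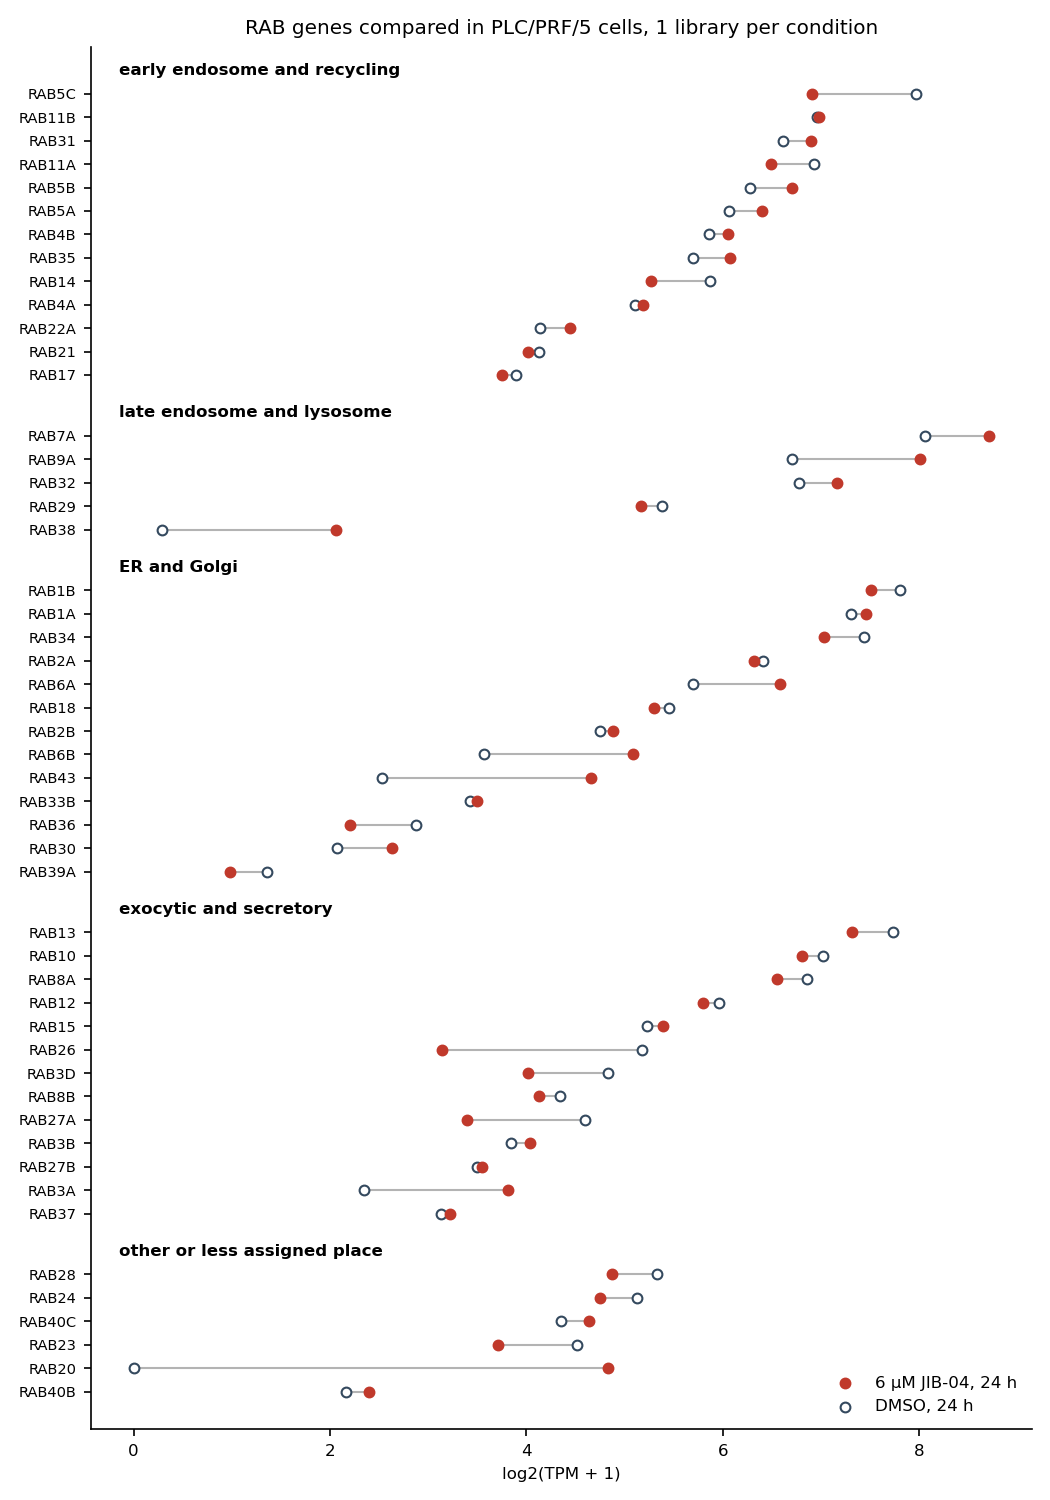
Levels of the 50 RAB genes compared, in log2(TPM + 1), grouped by the compartment with which each protein is mainly associated. Filled points are the JIB-04 library and open points the DMSO library, 1 library each; most pairs lie close together, and the open point of RAB20 lies at 0.

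The 12 members not compared were weak or silent in these cells. RAB25, RAB41, RAB44, RAB9B, RAB42 and RAB19 were listed at 0 in both libraries. RAB25 is an epithelial relative of RAB11A, while RAB11A and RAB11B were both well expressed. Nearest under the threshold were RAB6D, with 0.85 TPM with JIB-04 and 0.40 TPM with DMSO, and RAB33A, with 0.83 TPM with JIB-04 and 0.38 TPM with DMSO. Nearest above it was RAB39A, with 0.97 TPM with JIB-04 and 1.57 TPM with DMSO. Expression was concentrated in a few members: RAB7A, RAB1B, RAB13, RAB5C and RAB9A together held 35.1% of the RAB TPM with JIB-04 and 33.9% with DMSO, and 13 members had a mean above 100 TPM.

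RAB20 differed most. This RAB acts in endosomes and in the maturation of phagosomes and is known as a target of hypoxia-inducible factor. It had 27.4 TPM with JIB-04 and was listed at 0 with DMSO. Both exons of its only annotated transcript (chr13:111175413-111214084, hg19, minus strand) were covered with JIB-04, at a mean depth of 33.3 per base in the first and 61.6 in the second, and at 0 in both with DMSO. The JIB-04 level came from an estimated 410 fragments, and its 95% Poisson interval was 24.8 to 30.2 TPM, which covers counting error only. In the DMSO library 3 fragments would have given 0.17 TPM. Since an exact 0 in such a file can also be a failed estimate, no fold is given for it. Of the 14450 genes compared, 47 had a listed 0 in the JIB-04 library and 70 in the DMSO library. Of the genes at 0 in the JIB-04 library 3 had at least 10 TPM in the other, and of those at 0 in the DMSO library 4 did.

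Among the RABs of late endosomes and lysosomes, 4 of the 5 members compared lay above 0, beside 39.7% of all genes. The median log2 ratio of the 5 was 0.66. Their summed level was 856 TPM with JIB-04 and 518 TPM with DMSO. RAB7A, which drives fusion of late endosomes with lysosomes and was the most abundant RAB gene, had 419 TPM with JIB-04 and 265 TPM with DMSO. Its log2 ratio of 0.66 had a 95% interval of 0.61 to 0.70 from counting error, and so stayed under the 2-fold call. RAB9A, which returns mannose 6-phosphate receptors from late endosomes to the Golgi, had 257 TPM with JIB-04 and 104 TPM with DMSO, a log2 ratio of 1.30 (1.22 to 1.39). The coverage ratio was similar in each of its 3 annotated exons, at 1.88 to 2.07.

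RAB32 and RAB38 are close relatives that serve melanosomes and other lysosome-related organelles. They stood at opposite ends of the abundance scale. RAB32 had 142 TPM with JIB-04 and 108 TPM with DMSO, a log2 ratio of 0.39 (0.29 to 0.49). RAB38 had only 3.18 TPM with JIB-04 and 0.22 TPM with DMSO, estimated from 46 fragments with JIB-04 and 4 with DMSO, and its log2 ratio of 1.78 (1.29 to 2.04) fell under 2-fold with a pseudocount of 5. RAB29, which recruits the kinase LRRK2, had 34.9 TPM with JIB-04 and 40.6 TPM with DMSO.

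In the ER and Golgi list, 13 members were compared, the median log2 ratio was 0.07, and the sums of 803 TPM with JIB-04 and 792 TPM with DMSO were close. Its leading members, RAB1A and RAB1B, carry vesicles between the ER and the Golgi. RAB1A had 174 TPM with JIB-04 and 157 TPM with DMSO, and RAB1B had 181 TPM with JIB-04 and 222 TPM with DMSO, a log2 ratio of −0.29 (−0.35 to −0.23). RAB34, which acts at the Golgi, at lysosomes and in forming cilia, had 129 TPM with JIB-04 and 173 TPM with DMSO, a log2 ratio of −0.41 (−0.50 to −0.33).

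The RAB6 pair, which directs transport from endosomes and the Golgi back towards the ER, stood out within this list. RAB6B, described as the neuronal form, had 33.0 TPM with JIB-04 and 10.8 TPM with DMSO, a log2 ratio of 1.52 (1.41 to 1.64), with all 8 exons at a coverage ratio of 1.96 to 3.19. The ubiquitous RAB6A had 94.6 TPM with JIB-04 and 50.9 TPM with DMSO, a log2 ratio of 0.88 (0.80 to 0.96). RAB6A was just under the call and passed it when the median log2 ratio of the 9007 genes with at least 10 TPM in both libraries, −0.15, was set to 0. RAB6C and RAB6D are copies of RAB6A, so that the assignment of reads among them is uncertain, but neither reached 1 TPM.

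**Figure D2:**
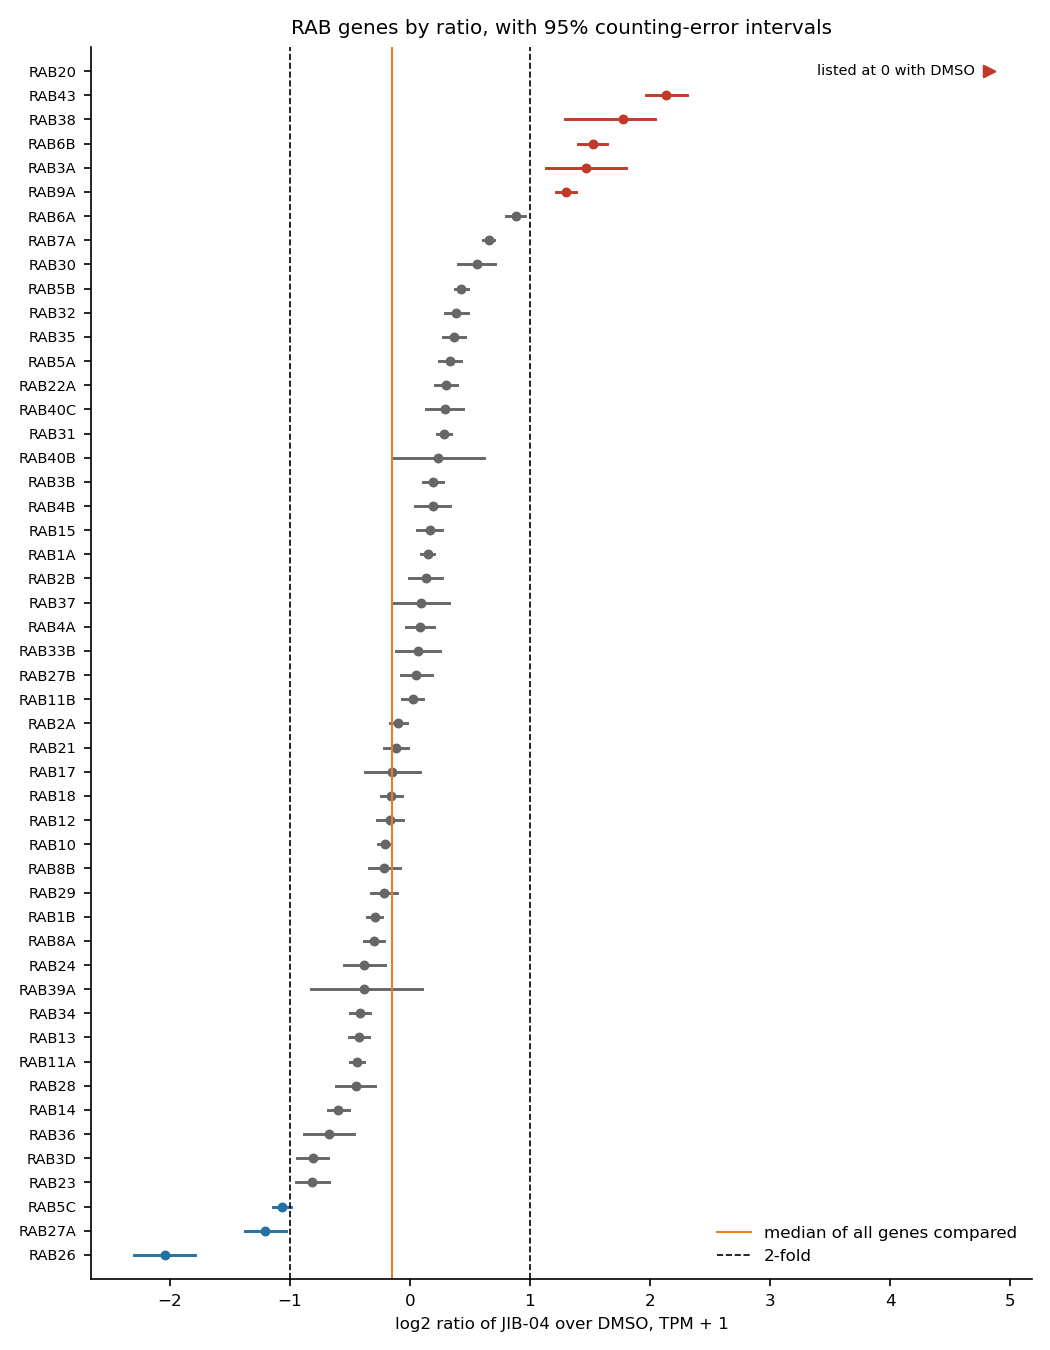
Log2 ratios of JIB-04 over DMSO (TPM + 1) for the 50 RAB genes, with the highest at the top; bars are 95% intervals from counting error alone, the orange line is the median of all genes compared and dashed lines mark 2-fold. RAB20, listed at 0 with DMSO, is drawn as an arrowhead without an interval, since its place depends on the pseudocount.

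The exocytic and secretory list had 13 members compared and the lowest median of the 5 lists, −0.21, near the −0.15 of all genes compared. Its sums were 554 TPM with JIB-04 and 693 TPM with DMSO. Without last exons its members moved both ways. RAB10, whose −0.21 is the list median, had 0.19, and RAB3D had −1.03 in place of −0.81. The list median was not computed on that measure. RAB26, which acts in the maturation of secretory granules, had 7.79 TPM with JIB-04 and 35.1 TPM with DMSO. Its log2 ratio of −2.04 (−2.30 to −1.79) was the lowest of the family, and the coverage ratio was low all along the gene, at 0.15 to 0.23 in the 9 exon positions covered in both libraries. RAB27A, which docks secretory granules and multivesicular bodies at the plasma membrane, had 9.53 TPM with JIB-04 and 23.2 TPM with DMSO, a log2 ratio of −1.20 (−1.37 to −1.03). It fell short of the call without its last exon, at −0.79, and with a pseudocount of 5, at −0.96. Its relative RAB27B had 10.7 TPM with JIB-04 and 10.3 TPM with DMSO. RAB13, which carries proteins to cell junctions, had 158 TPM with JIB-04 and 212 TPM with DMSO, a log2 ratio of −0.42 (−0.51 to −0.34).

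RAB3 genes serve regulated exocytosis. RAB3A, best known from synaptic vesicles, had 13.1 TPM with JIB-04 and 4.08 TPM with DMSO, a log2 ratio of 1.47 (1.13 to 1.80), with a coverage ratio of 1.68 to 3.21 in its 5 exons. RAB3D, known from secretory granules of exocrine cells, had 15.2 TPM with JIB-04 and 27.4 TPM with DMSO, a log2 ratio of −0.81 (−0.94 to −0.68). These 2 genes moved in opposite directions while RAB3B, at 15.4 TPM with JIB-04 and 13.3 TPM with DMSO, had a log2 ratio of 0.19.

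In the early endosome and recycling list, 13 members were compared, the median log2 ratio was 0.09 and sums were 890 TPM with JIB-04 and 977 TPM with DMSO. The RAB5 genes direct fusion of early endosomes. RAB5B had 103 TPM with JIB-04 and 76.4 TPM with DMSO, a log2 ratio of 0.43 (0.37 to 0.49). RAB5C had 119 TPM with JIB-04 and 249 TPM with DMSO, a log2 ratio of −1.06 (−1.14 to −0.99), and was the only member of this list called, though not on the scale that set the median of well-expressed genes to 0. RAB35 and RAB11A, of the fast and the slow recycling route, went apart: RAB35 had 66.2 TPM with JIB-04 and 51.0 TPM with DMSO, a log2 ratio of 0.37, and RAB11A had 88.9 TPM with JIB-04 and 121 TPM with DMSO, a log2 ratio of −0.44. Without last exons RAB35 had 0.49 and RAB11A −0.14, the latter near the median of all genes on that measure, −0.11. RAB14, which acts between the Golgi and endosomes, had 37.7 TPM with JIB-04 and 57.3 TPM with DMSO, a log2 ratio of −0.59 that was −0.26 without its last exon.

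The remaining 6 members compared have other or less settled places. Besides RAB20 they include RAB23, a negative regulator of Hedgehog signalling, with 12.1 TPM with JIB-04 and 21.9 TPM with DMSO, a log2 ratio of −0.81 (−0.95 to −0.68). RAB28, which acts in cilia and photoreceptors, had 28.3 TPM with JIB-04 and 39.1 TPM with DMSO, a log2 ratio of −0.45 (−0.61 to −0.29). Without last exons RAB23 had −0.68 and RAB28 −0.18. Neither reached the 2-fold call.

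RAB genes that share a number encode close relatives, and their levels were set side by side as a pool. The 3 RAB3 genes had 43.7 TPM in all with JIB-04 and 44.8 TPM with DMSO, so the pool hardly differed while its makeup did. RAB3A made up 29.9% of it with JIB-04 and 9.12% with DMSO, and RAB3D 34.8% with JIB-04 and 61.1% with DMSO. In the RAB6 pair the pool itself differed, with 128 TPM with JIB-04 and 61.7 TPM with DMSO, and the share of RAB6B was 25.9% with JIB-04 and 17.5% with DMSO. The RAB27 pair had 20.3 TPM with JIB-04 and 33.5 TPM with DMSO, with RAB27A at 47.0% with JIB-04 and 69.3% with DMSO. The RAB5 pool had 305 TPM with JIB-04 and 391 TPM with DMSO, with RAB5C at 38.9% with JIB-04 and 63.7% with DMSO. Without last exons the RAB5 pool turned round, to 467 TPM with JIB-04 and 435 TPM with DMSO, with RAB5C at 54.7% with JIB-04 and 65.2% with DMSO. The RAB3 pool on that measure had 47.8 TPM with JIB-04 and 49.5 TPM with DMSO, with RAB3A at 30.4% with JIB-04 and 11.0% with DMSO. In the RAB1, RAB2, RAB4, RAB8, RAB11 and RAB40 pools the log2 ratios of the members lay within 0.46 of each other. Without last exons RAB1A (0.44) and RAB1B (−0.20) lay further apart, as did RAB8B (0.33) and RAB8A (−0.17). RAB11A (−0.14) and RAB11B (−0.002) lay closer together. RAB4B shares 100% of its exonic bases with readthrough genes, so the division of reads between them is uncertain.

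**Figure D3:**
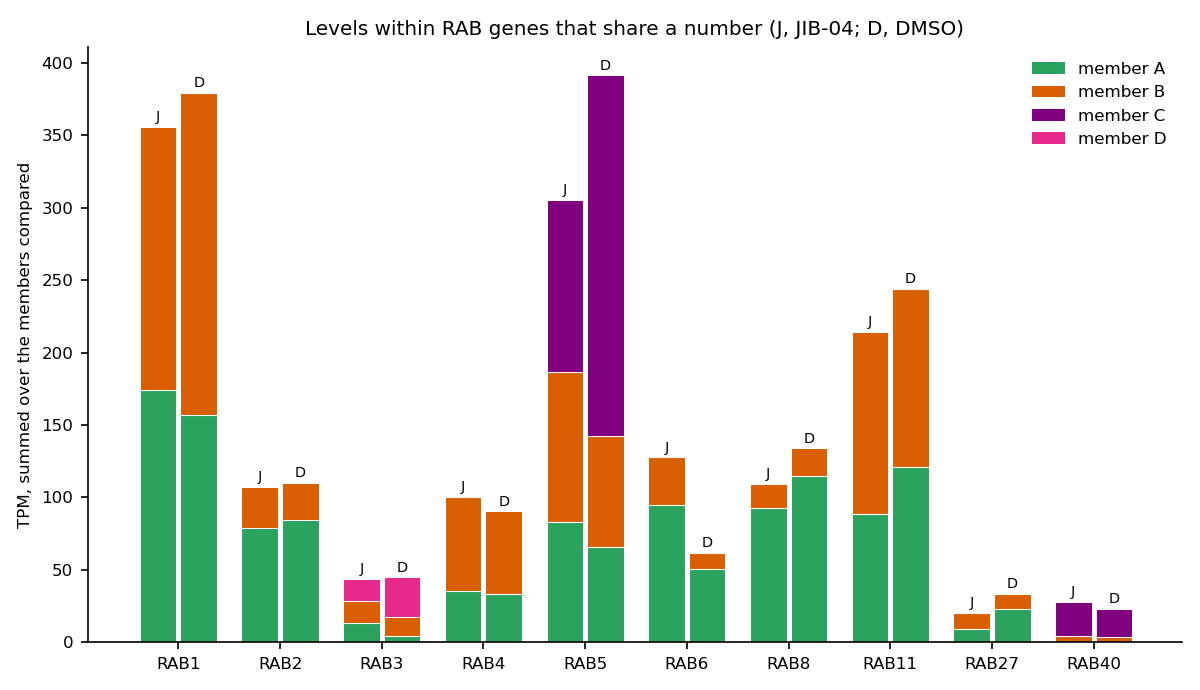
Summed TPM of RAB genes that share a number, with the JIB-04 library left (J) and the DMSO library right (D) in each pair and colours for members A to D. The RAB3 bars are almost equally high, at 43.7 TPM with JIB-04 and 44.8 TPM with DMSO, but differ in makeup.

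Coverage along each gene showed that some calls did not apply to the whole transcript. The deposited files give a mean depth for each exon, and because the libraries differ in depth, an exon of equal TPM has a coverage ratio of 0.83. The last exon of the leading RAB5C transcript, 923 bases long, had a depth of 2.39 with JIB-04 and 486 with DMSO, while its other exons had a mean of 469 with JIB-04 and 638 with DMSO. Computed from all exons but the last, RAB5C had 256 TPM with JIB-04 and 284 TPM with DMSO, a log2 ratio of −0.15 in place of −1.06. By this measure most of the difference in RAB5C lay in its last exon. Whether this reflects the transcripts or the way coverage was assigned was not tested, here or for the genes below.

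RAB43, which acts at the Golgi, showed the reverse. It had 24.3 TPM with JIB-04 and 4.75 TPM with DMSO, a log2 ratio of 2.14 (1.96 to 2.31). Summed over its transcripts, the last exon of 3778 bases had a depth of 52.5 with JIB-04 and 7.80 with DMSO, but the exon of 184 bases before it had 77.9 with JIB-04 and 81.1 with DMSO. Without the last exon RAB43 had 12.7 TPM with JIB-04 and 14.7 TPM with DMSO, a log2 ratio of −0.20, and was no longer called. RAB43 shares 84.7% of its exonic bases with the readthrough gene ISY1-RAB43, which had 4.12 TPM with JIB-04 and was listed at 0 with DMSO, so the division of reads between them is uncertain. RAB24, a RAB linked to autophagy, had little coverage of its last exon with JIB-04, as RAB5C did. The 618 bases had a depth of 8.06 with JIB-04 and 68.9 with DMSO, while the exon before it had 152 with JIB-04 and 178 with DMSO.

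Across the family, 43 members had enough coverage for this comparison, meaning a depth of at least 10 in the other exons of both libraries and in the last exon of at least 1. In 2 of them (4.65%) the coverage ratio of the last exon was at least 4-fold lower than that of the other exons, beside 1.44% of 9407 genes, and in 1 (2.33%) it was at least 4-fold higher, beside 0.914%. The threshold was set after RAB5C had been seen. In 32 of the 43 members (74.4%), beside 59.8% of the 9407 genes, the last exon had the lower ratio of both parts, with a median of 0.83 for the last exon relative to the rest, and over all 9407 genes that median was 0.96. Without last exons RAB20, RAB38, RAB3A, RAB6A, RAB6B and RAB9A were called higher and RAB26 and RAB3D lower. These were 12% and 4% of the members compared, beside 6.14% and 6.67% of all genes. Calls for RAB3A, RAB6B, RAB9A and RAB26 therefore held with either measure. The call of RAB38 held too, but RAB38 was not among the 43 members with enough coverage. Its other exons had depths of 7.28 and 4.92 with JIB-04 and 0 and 1.29 with DMSO. The call of RAB20 could not change, since both of its exons were listed at 0 with DMSO.

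Transcript levels were set against exon coverage in the same way. Of the 50 members, 23 have 1 annotated transcript and 27 have several, and the leading transcript was the same in both libraries in 24 of these. It differed for RAB6A, RAB29 and RAB36, and in 8 members the share of a transcript differed by at least 10 percentage points. RAB6A is the clearest case, since its full-length transcripts use either of 2 coding exons in the same place. Both are 106 bases long, lie 66 bases apart and encode the switch II region that changes shape between the GTP and GDP forms. They are printed here because the reads that tell the isoforms apart come from them, with the 31 bases that differ in capitals (GENCODE transcript sequence, GRCh38, minus strand, chr11:73718785-73718890 for the upstream and chr11:73718613-73718718 for the downstream exon).
RAB6A upstream exon: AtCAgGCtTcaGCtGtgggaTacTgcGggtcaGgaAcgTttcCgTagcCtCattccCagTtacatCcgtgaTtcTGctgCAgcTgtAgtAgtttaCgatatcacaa
RAB6A downstream exon: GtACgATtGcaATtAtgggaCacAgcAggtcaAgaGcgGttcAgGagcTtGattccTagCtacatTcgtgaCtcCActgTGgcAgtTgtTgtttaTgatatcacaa

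By transcript TPM, the downstream form made up 50.4% of the 2 full-length RAB6A transcripts with JIB-04 and 37.0% with DMSO. By the depth of the exons themselves it made up 32.5% with JIB-04, from 76.0 on the downstream and 158 on the upstream exon, and 35.7% with DMSO, from 48.2 and 86.8. Clopper-Pearson intervals of the exon share by estimated fragments, 24.4% to 41.6% with JIB-04 and 24.2% to 47.5% with DMSO, overlapped. These fragment numbers are covered bases divided by 202, while each exon is 106 bases long. They may therefore be too low and the intervals too wide, so the overlap does not decide whether isoform use differed. By exon depth the shares lay closer together than by transcript TPM, and both exons had more coverage with JIB-04. The optional 72-base exon of RAB36, a Golgi and late endosome RAB at 3.62 TPM with JIB-04 and 6.34 TPM with DMSO, gave a similar picture: the transcript holding it had 2.33% of the TPM with JIB-04 and 52.3% with DMSO, but the depth of the exon was 21.2% of that of the next exon with JIB-04 and 24.5% with DMSO.

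**Figure D4:**
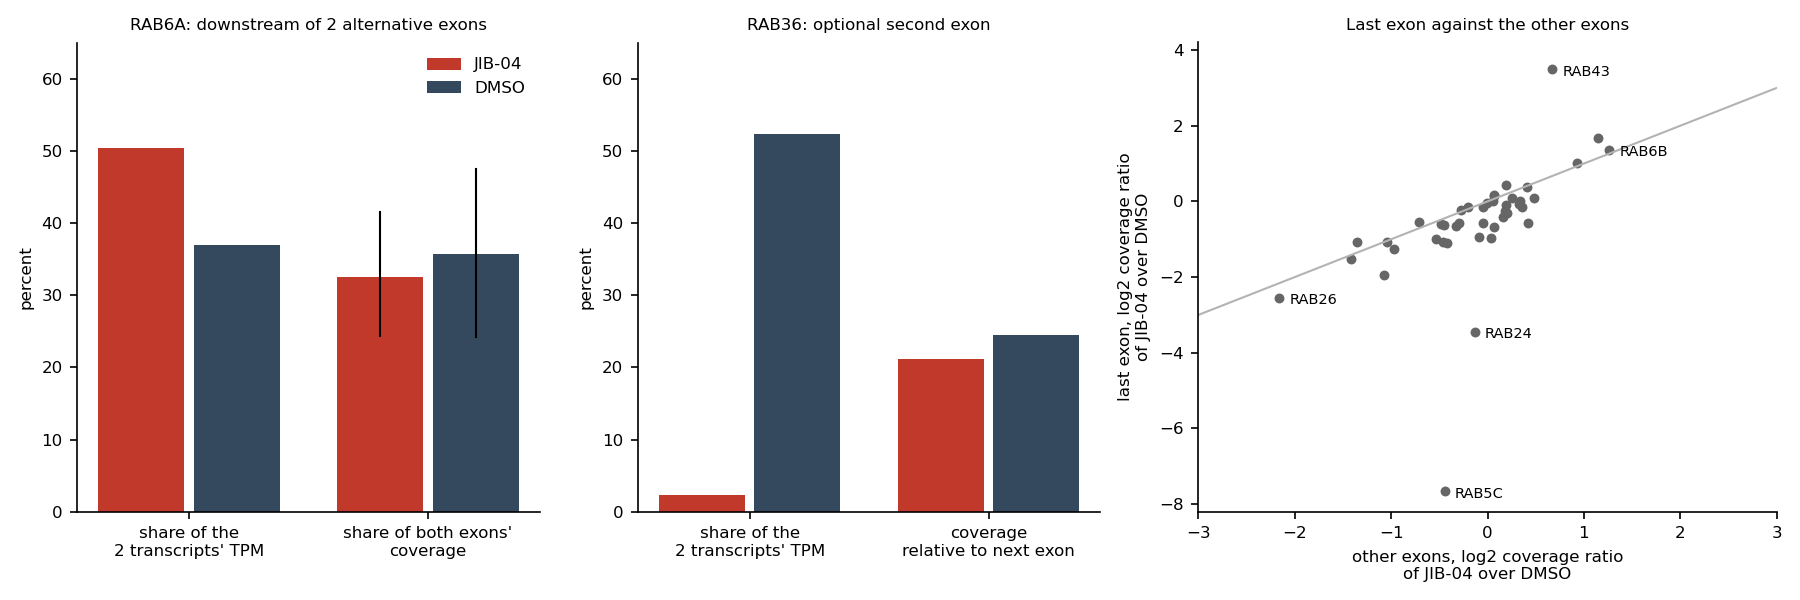
Left and middle, shares in percent by transcript TPM and by exon depth for the downstream RAB6A exon and the optional RAB36 exon, JIB-04 before DMSO, with 95% counting intervals where shown. Right, log2 coverage ratio of the last exon against that of the other exons for 43 RAB genes; the grey line marks equal ratios, and RAB5C, RAB24 and RAB43 lie far from it.

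Promoters were searched for the core of the hypoxia response element, ACGTG or GCGTG on either strand, since RAB20 is known as a target of hypoxia-inducible factor. RefSeq windows of 300 bases (GRCh38.p14) were found for 40 of the 50 members, and RAB20 was among the 10 without an entry. A core was present in 26 of the 40 (65%), beside 52.4% of the 27305 genes in the table, and by window in 56.7% of 60 against 48.4% of 35116. Among members with a window, 2 of the 4 higher ones (50%), 1 of the 2 lower ones (50%) and 23 of the 34 not called (67.6%) held a core. The higher members with a core were RAB3A and RAB6B. Their sequences around it are shown with the core in capitals (minus strand, chr19:18204109-18204215 for RAB3A and chr3:133895917-133895961 for RAB6B). ACGTG is also part of the E-box CACGTG, and so short a match is a description of the letters only.
RAB3A promoter: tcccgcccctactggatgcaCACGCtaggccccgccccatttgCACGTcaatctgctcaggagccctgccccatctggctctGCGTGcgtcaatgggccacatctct
RAB6B promoter: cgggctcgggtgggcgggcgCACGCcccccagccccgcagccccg

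Genes that act on RAB proteins were examined in 5 lists of 145 genes, of which 140 were compared. Of these, 9 (6.43%) were higher and 2 (1.43%) lower with JIB-04, beside 5.99% and 6.88% of all genes, and their median log2 ratio was −0.04. None of the 8 genes for prenylation and membrane extraction was called by gene TPM. RABGGTB, the catalytic subunit of RAB geranylgeranyl transferase, had 128 TPM with JIB-04 and 228 TPM with DMSO, a log2 ratio of −0.83 (−0.91 to −0.76), which was −1.07 by its most abundant transcript. CHM, which presents new RAB proteins to that enzyme, had 15.7 TPM with JIB-04 and 26.7 TPM with DMSO, a log2 ratio of −0.73 that became −1.85 by its most abundant transcript and 0.03 without its last exon. Its relative CHML had 29.3 TPM with JIB-04 and 26.1 TPM with DMSO, a log2 ratio of 0.16.

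None of 49 GEF genes was called by gene TPM. DENND1C, an exchange factor of the DENN family, had 16.1 TPM with JIB-04 and 7.97 TPM with DMSO, and DENND5A had 75.0 TPM with JIB-04 and 39.1 TPM with DMSO, with log2 ratios of 0.93 and 0.92. Both passed 2-fold on the median-centred scale described above, at 1.08 and 1.07, and with quantile normalization, at 1.08 and 1.05. RAB3IL1, which acts on RAB8 and RAB3 proteins, had 11.5 TPM with JIB-04 and 22.3 TPM with DMSO, a log2 ratio of −0.89 that passed the call at −1.06 without its last exon. MON1A, part of the exchange factor for RAB7A, had 6.73 TPM with JIB-04 and 11.0 TPM with DMSO, a log2 ratio of −0.63.

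Of 38 GAP genes, 3 (7.89%) were higher, near the 5.99% of all genes, and none was lower. TBC1D9B, a GAP for RAB11A, had 241 TPM with JIB-04 and 64.1 TPM with DMSO, a log2 ratio of 1.89 (1.84 to 1.94). TBC1D20, a GAP for RAB1, had 27.3 TPM with JIB-04 and 12.9 TPM with DMSO, a log2 ratio of 1.02 that fell short of the call with a pseudocount of 5, at 0.85, and with FPKM, at 0.93. TBC1D22A, named after its value was seen, had 76.5 TPM with JIB-04 and 37.6 TPM with DMSO. Its log2 ratio of 1.01 (0.92 to 1.09) lay even nearer the call than that of TBC1D20. TBC1D5, which acts on RAB7A, and TBC1D31 each had a log2 ratio of −0.72, but by the most abundant transcript TBC1D31 had −0.33 and the difference of TBC1D5 was gone.

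Of 39 effector genes, 6 (15.4%) were higher, beside 5.99% of all genes, and 2 (5.13%) were lower, beside 6.88%. RAB11FIP5, which binds RAB11 on recycling endosomes, had 68.0 TPM with JIB-04 and 19.6 TPM with DMSO, a log2 ratio of 1.74 (1.64 to 1.84). OPTN, a RAB8 effector and autophagy receptor, had 254 TPM with JIB-04 and 106 TPM with DMSO, a log2 ratio of 1.26 (1.20 to 1.31). The other higher effectors, named after their values were seen, were SYTL2, RAB11FIP1, MICALL2 and PLEKHM1. MICALL2, at 1.07 (0.95 to 1.20), and PLEKHM1, at 1.06 (0.94 to 1.18), were only just past the call. With a pseudocount of 5 the higher genes of all 5 lists fell from 9 to 4. PLEKHM1 links RAB7A to lysosomal fusion and had 26.8 TPM with JIB-04 and 12.4 TPM with DMSO. SYTL2 had only 1.73 TPM with JIB-04 and 0.10 TPM with DMSO, so it was compared only through the library where it was higher. RABEPK, an effector of RAB9A, was lower, with 17.1 TPM with JIB-04 and 42.8 TPM with DMSO, a log2 ratio of −1.28 (−1.47 to −1.08). The RAB27 effector SYTL5 had 5.07 TPM with JIB-04 and 11.8 TPM with DMSO, a log2 ratio of −1.08. Its call was lost on the median-centred scale, at −0.95, with quantile normalization, at −0.97, with FPKM, at −0.95, with a pseudocount of 5, at −0.74, and narrowly without its last exon.

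All 6 RAB-like GTPase genes compared had a log2 ratio below 0, with a median of −0.72, though none reached 2-fold. Of all genes compared, 60.3% lay below 0. RABL3 had 5.14 TPM with JIB-04 and 10.8 TPM with DMSO, a log2 ratio of −0.95 that passed the call at −1.06 with a pseudocount of 0.1. IFT22 and IFT27, the small GTPases of the ciliary transport complex, had log2 ratios of −0.77 and −0.29, and IFT22 passed the call at −1.03 without its last exon. RABL2B had −0.53, but RABL2A and RABL2B are near-identical copies between which reads cannot be assigned with certainty.

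**Figure D5:**
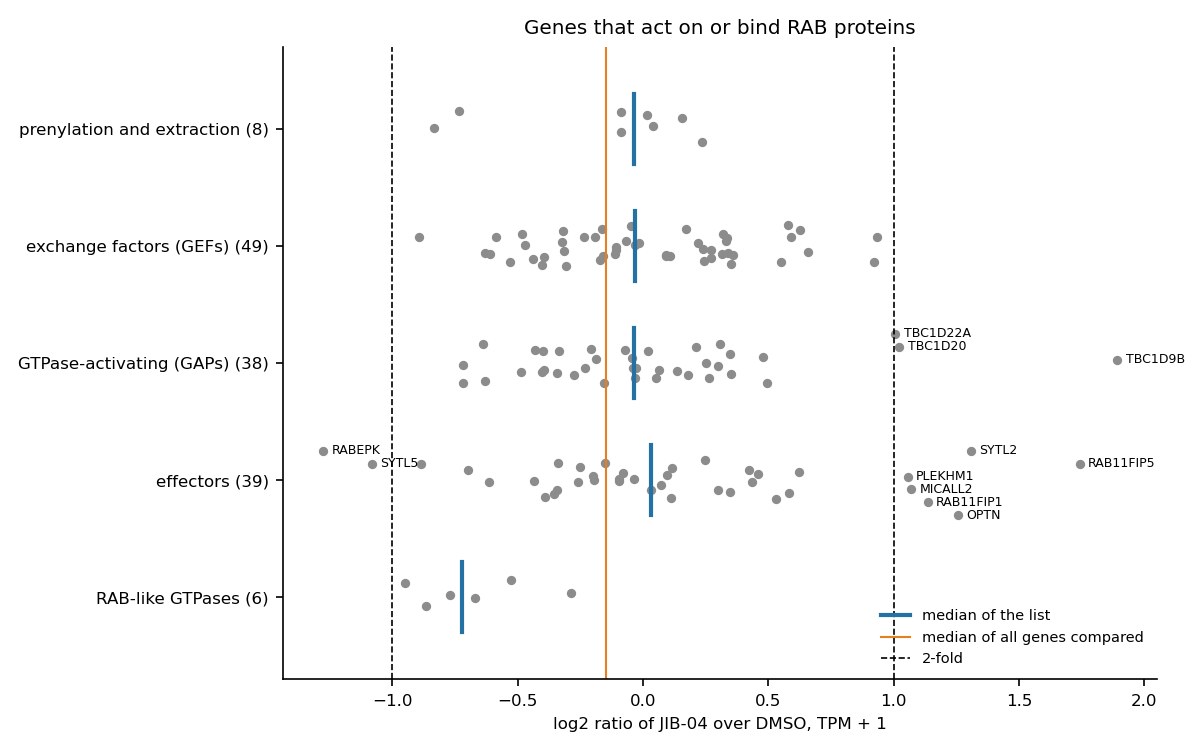
Log2 ratios of JIB-04 over DMSO (TPM + 1) for genes that act on or bind RAB proteins, in 5 lists with the number compared in brackets; each point is a gene, the blue bar the median of its list, the orange line the median of all genes and dashed lines 2-fold. Genes past 2-fold are named, and the points of the RAB-like list all lie below 0.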

How the data were processed

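RNA was sequenced from 2 libraries of PLC/PRF/5 cells (stranded, poly(A)-selected). Levels were computed with StringTie 1.3.3b on hg19 (GRCh37), and the submitters' notes on processing also list HISAT2 2.0.5 and Bowtie2 2.2.6 for alignment, and FastQC 0.11.5 and Trimmomatic 0.32 for the reads. The values the authors deposited are coverage, FPKM and TPM for annotated RefSeq transcripts, and coverage for each exon, with no read counts. Ambiguous reads were divided among transcripts by StringTie, so transcript levels are model estimates.

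Gene TPM is the sum over transcripts. Symbols came from the RefSeq gene table of GRCh38.p14 by Entrez ID, which named 27559 of 27685 genes, and coordinates are those of the files unless another build is given. A pseudocount of 1 was used. The number of fragments of a transcript was taken as its covered bases divided by 202 (2 mates of 101 bases), and 95% intervals are exact conditional binomial intervals of these, for counting error only. Levels without the last exon are the mean coverage of a transcript's other exons on the TPM scale, an alternative added after the data had been seen. Analyses used Python 3.11.15, pandas 2.3.3 and SciPy 1.17.1, tested on simulated data.

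The members and all lists were chosen with earlier results of these data known. Named were members past 2-fold, the 10 highest and 10 lowest log2 ratios among members with a mean of at least 5 TPM, the 5 most abundant members, RAB20, and in each regulator list the 2 highest and 2 lowest log2 ratios at that mean. Other genes were named after their values were seen. Alternatives were other pseudocounts, filters, thresholds, scalings, FPKM and the most abundant transcript. A planned comparison of protein sequences was not made. The values of 1 gene that this rule names are not reported here.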

Additional observations from a re-analysis of the deposited data

How the results depend on the processing

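RAB26 passed the call under every alternative run, 1 of which (levels without the last exon) was added after the data were seen. RAB20 did so too, but its listed 0 with DMSO left none of these alternatives able to remove its call. Counts of 6 higher and 3 lower RAB genes became 8 (16%) and 7 (14%) at a 1.5-fold threshold, beside 12.8% and 21.0% of all genes, and 3 (6%) and 1 (2%) at 3-fold, beside 2.2% and 1.07%. A pseudocount of 5 left 4 higher (8%) and 2 lower (4%), without RAB38, RAB3A and RAB27A, beside 3.04% and 2.83% of all genes. Setting the median of well-expressed genes to 0 gave 7 higher (14%) and 2 lower (4%), beside 7.67% and 4.70%. RAB6A entered and RAB5C left, while all genes called shifted to 62.0% higher, from 46.5%. The median log2 ratio of RAB genes was 0.06, and became 0.20 under that scaling, 0.20 with quantile normalization and 0.23 without last exons. RAB43 changed direction without its last exon, to a log2 ratio of −0.20. The RAB20 level with JIB-04 became 30.5 TPM after scaling.

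Regulator genes, 9 higher and 2 lower of 140, came to 15 and 19 at 1.5-fold, beside 12.8% and 21.0% of all genes. At 3-fold they were 2 and 0, beside 2.2% and 1.07%. With a pseudocount of 5 or with FPKM they were 4 and 1. All genes had 3.04% and 2.83% with that pseudocount, and 4.03% and 4.81% with FPKM. The lower count was 4 with a pseudocount of 0.1, beside 9.94% of all genes, and 7 by the most abundant transcript, beside 8.89%. After either scaling it was 1, beside 4.70% with the median set to 0 and 5.25% with quantile normalization. No paired analysis was possible because each condition has 1 library, and for the same reason no library could be left out. Depth limits weak members most, such as RAB38 with 4 estimated fragments with DMSO.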
